A study of Homo sapiens with 6 samples.

Results

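The 10 genes described here encode the core of the DNA synthesis machinery at the replication fork. They are the sliding clamp PCNA, the clamp loader subunits RFC1, RFC2, RFC3, RFC4 and RFC5, and the polymerase subunits POLA1, POLD1, POLD2 and POLE. They were taken by symbol from a table of 20289 genes of ribosome footprints, the pieces of mRNA that a translating ribosome protects from nuclease. All 10 had a value above 0 in every library and passed the filter on low values. The cells were RKO, a human colorectal cancer line, in 2 groups of 3 libraries. In the shTRMT6 group a short hairpin RNA lowers TRMT6, a subunit of the enzyme that methylates adenosine 58 of tRNAs to m1A, and the shControl group, labelled WT, carries a control hairpin. Both groups share the line, and the labels name no hairpin sequence, drug or time point, nor whether the 3 libraries within a group are separate cultures. The p-values therefore cover the spread between these 6 libraries, which may be technical.

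At a fork, polymerase alpha with primase lays down short primers, polymerase epsilon extends the leading strand and polymerase delta the lagging strand. PCNA is a ring of identical subunits that slides along DNA and holds polymerases and many repair and chromatin factors in place. The clamp loader, of the large subunit RFC1 and the small subunits RFC2, RFC3, RFC4 and RFC5, uses ATP to open the ring and close it around the primed template. In dividing cells these genes are well known targets of the E2F factors, which switch on S phase genes, and PCNA is widely used as a marker of proliferation.

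For orientation, a window from 250 bases before to 50 bases after the start is shown for each of the 4 genes that passed the test below, from RefSeq on GRCh38.p14. Capitals mark matches to an E2F-type motif, TTTNNCGC, searched on both strands. All windows are read 5′ to 3′ along the gene, on the minus strand.
PCNA, chr20:5126573-5126872: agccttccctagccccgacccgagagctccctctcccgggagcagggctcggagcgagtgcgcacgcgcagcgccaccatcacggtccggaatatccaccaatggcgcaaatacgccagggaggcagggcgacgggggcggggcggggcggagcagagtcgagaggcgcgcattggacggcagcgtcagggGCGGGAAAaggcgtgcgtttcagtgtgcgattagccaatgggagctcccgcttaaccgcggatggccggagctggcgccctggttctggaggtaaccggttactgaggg
RFC1, chr4:39366313-39366612: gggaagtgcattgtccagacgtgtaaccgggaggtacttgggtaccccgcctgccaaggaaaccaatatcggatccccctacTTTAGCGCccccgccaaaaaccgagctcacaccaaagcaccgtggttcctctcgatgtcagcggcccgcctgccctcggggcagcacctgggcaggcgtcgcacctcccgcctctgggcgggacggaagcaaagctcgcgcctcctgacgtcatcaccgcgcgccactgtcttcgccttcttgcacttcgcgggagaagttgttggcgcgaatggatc
POLD2, chr7:44123499-44123798: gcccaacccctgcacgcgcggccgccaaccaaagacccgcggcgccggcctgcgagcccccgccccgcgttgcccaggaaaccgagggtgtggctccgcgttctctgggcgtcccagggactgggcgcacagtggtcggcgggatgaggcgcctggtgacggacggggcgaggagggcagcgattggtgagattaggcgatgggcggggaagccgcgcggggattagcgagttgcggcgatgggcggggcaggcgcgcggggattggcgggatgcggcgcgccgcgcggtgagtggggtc
POLE, chr12:132687293-132687592: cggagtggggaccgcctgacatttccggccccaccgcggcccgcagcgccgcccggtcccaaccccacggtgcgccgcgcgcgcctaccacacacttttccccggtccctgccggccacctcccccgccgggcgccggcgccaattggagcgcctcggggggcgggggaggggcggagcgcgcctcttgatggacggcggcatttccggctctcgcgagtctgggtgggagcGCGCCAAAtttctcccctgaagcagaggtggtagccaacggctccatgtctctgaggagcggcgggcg

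All 10 genes had such a window, and PCNA and POLD1 had a second one. The E2F-type motif was found for 6 of the 10 genes, namely PCNA, RFC1, RFC3, RFC5, POLA1 and POLE, in 6 of the 12 windows, whereas 6.89% of all 35116 windows of that length hold it. The sequence CCAAT, searched on both strands, was also found for 6, namely PCNA, RFC1, RFC5, POLA1, POLD2 and POLE, in 7 of the 12 windows, against 34.6% of all windows. PCNA, which was lower after knockdown, and RFC1 and POLE, which were higher, all hold both motifs in the windows shown. The second PCNA window, not shown, held CCAAT but no E2F-type match. A match is a description of the letters and not of binding.

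The values are FPKM, fragments scaled by gene length and library size. Comparing levels between genes assumes that the length used for each gene fits it, and the annotation is not given. FPKM summed to 1531873 to 1582826 in shTRMT6 libraries and 1463344 to 1760307 in shControl libraries. TRMT6 itself had 20.7, 21.9 and 24.1 FPKM in shTRMT6 libraries, against 57.6, 58.4 and 95.3 FPKM in shControl libraries, with a log2 fold change of -1.58 (SE 0.27, limma adjusted p = 0.00301). Of 5 epithelial markers KRT8, KRT18 and EPCAM were above 0 in every library, CDH1 was at 0 throughout, and KRT19 was at 0 in all libraries but shControl replicate 1. Of 5 intestinal markers CDX2 was above 0 in every library, and CDX1, VIL1, LGALS4 and GPA33 were at 0 in all of them. None of 6 markers of leukocytes, hepatocytes, fibroblasts and endothelium exceeded 0.70 FPKM.

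The 10 genes did not move together. Tested with limma on log2(FPKM + 1), 3 were higher after TRMT6 knockdown (RFC1, POLD2 and POLE), 1 was lower (PCNA) and 6 did not pass an adjusted p of 0.05. Of all 11566 tested genes 26.5% were higher and 9.04% lower by the same rule, so counts of 3 and 1 in 10 lie near the background. The median log2 fold change of the 10 genes was -0.12, against 0.39 for all tested genes. With each library scaled to its own median, after which the median over all tested genes was -0.07, 1 of the 10 was higher (RFC1) and 5 were lower (PCNA, RFC2, RFC3, RFC4 and RFC5), with backgrounds of 13.1% and 19.7%. With quantile normalization RFC1 was higher and PCNA and RFC3 lower, with backgrounds of 13.9% and 14.7%. In these bulk libraries, fewer cells in S phase and fewer footprints per cell cannot be told apart.

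**Figure D1:**
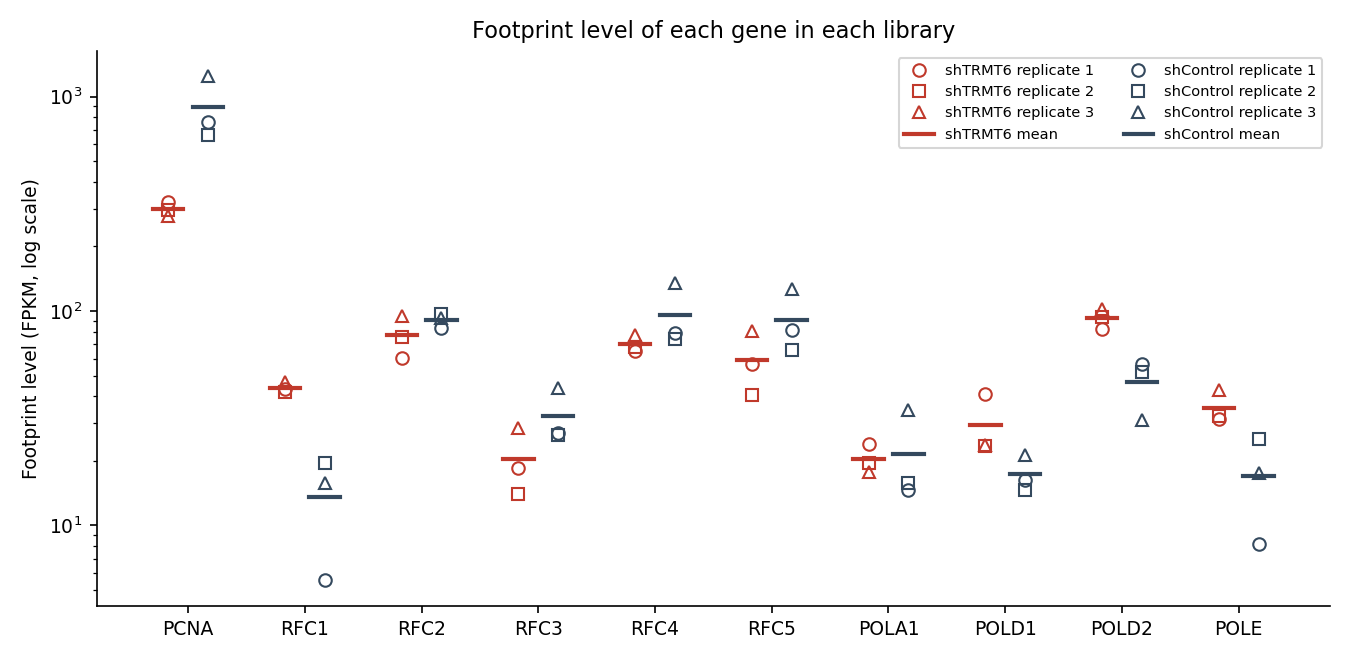
Footprint level of the 10 genes in FPKM on a log scale, with shTRMT6 libraries in red and shControl libraries in dark blue. Symbols are single libraries and bars are group means; the groups do not overlap for PCNA, RFC1, POLD1, POLD2 and POLE.

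PCNA, the sliding clamp, fell. It had 324, 297 and 277 FPKM in shTRMT6 libraries, against 764, 662 and 1248 FPKM in shControl libraries. Every shTRMT6 library lay below every shControl library, and the shControl libraries spread more widely, with replicate 3 the highest. The means were 299 ± 23.6 FPKM in shTRMT6 and 891 ± 313 FPKM in shControl (SD, n = 3 each), 2.98-fold lower after knockdown. The log2 fold change was -1.52 (SE 0.26, 95% interval -2.10 to -0.94, limma adjusted p = 0.00295). Without shControl replicate 3 it was -1.25 (limma adjusted p = 0.00154). PCNA was the gene with the highest level of the 10 in both groups. Its values rest on an estimated 560 to 950 reads per shTRMT6 library and 1353 to 3831 per shControl library. The gene lies on the minus strand of chromosome 20 from 5114953 to 5126626 (GENCODE 29, GRCh38), with 6 coding exons and 783 nt of coding sequence. GENCODE lists 3 pseudogenes named after it, none of them in the table, so reads shared with them are uncertain.

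RFC1, the large subunit of the clamp loader, rose. It had 43.2, 41.9 and 46.8 FPKM in shTRMT6 libraries, against 5.54, 19.5 and 15.8 FPKM in shControl libraries. The shTRMT6 libraries lay close together and above every shControl library, of which replicate 1 was the lowest. The means were 44.0 ± 2.52 FPKM in shTRMT6 and 13.6 ± 7.24 FPKM in shControl (SD, n = 3 each), and the log2 fold change was 1.78 (SE 0.40, 95% interval 0.87 to 2.68, limma adjusted p = 0.00928). Without shControl replicate 1 the log2 fold change was 1.27 (limma adjusted p = 0.0152). The RFC1 call ended with the trends with level and coding length removed (1.01, limma adjusted p = 0.0544). These values rest on an estimated 411 to 590 reads per shTRMT6 library and 62 to 214 per shControl library. RFC1 lies on the minus strand of chromosome 4 from 39287456 to 39366375, with 25 coding exons and 3444 nt of coding sequence.

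The small subunits RFC2, RFC3, RFC4 and RFC5, which form with RFC1 the ATP-driven loader, had negative log2 fold changes, none of which passed. RFC2 had 60.4, 76.0 and 94.4 FPKM in shTRMT6 libraries, against 83.1, 96.4 and 93.2 FPKM in shControl libraries, a log2 fold change of -0.26 (95% interval -0.79 to 0.27). RFC3 had 18.6, 14.1 and 28.3 FPKM in shTRMT6 libraries, against 26.9, 26.5 and 43.8 FPKM in shControl libraries, a log2 fold change of -0.66 (95% interval -1.40 to 0.08). The groups of both genes overlapped. RFC4 had 64.9, 68.0 and 77.5 FPKM in shTRMT6 libraries, against 79.1, 74.4 and 135 FPKM in shControl libraries, a log2 fold change of -0.40 (95% interval -1.01 to 0.20). RFC5 had 56.4, 40.5 and 80.3 FPKM in shTRMT6 libraries, against 81.7, 65.8 and 126 FPKM in shControl libraries, a log2 fold change of -0.62 (95% interval -1.34 to 0.11). Here too the groups overlapped, and shControl replicate 3 was the highest library for RFC3, RFC4 and RFC5, while shTRMT6 replicate 3 was the highest of its group for all 4. Limma adjusted p-values lay between 0.144 for RFC3 and 0.416 for RFC2. With each library scaled to its median all 4 were lower, with log2 fold changes from -0.75 for RFC2 (limma adjusted p = 0.0345) to -1.14 for RFC3 (limma adjusted p = 0.0266). RFC4 overlaps EIF4A2 and RFC5 overlaps WSB2 on the opposite strand, and since use of strand is not given in the sources used here, reads from these pairs may be mixed.

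The catalytic subunit of polymerase alpha, POLA1, which extends the RNA primers, had nearly equal means. It had 23.9, 19.6 and 17.7 FPKM in shTRMT6 libraries, against 14.6, 15.8 and 34.4 FPKM in shControl libraries. The groups overlapped, with the shControl libraries spanning the wider range and shControl replicate 3 the highest. The means were 20.4 ± 3.15 FPKM in shTRMT6 and 21.6 ± 11.1 FPKM in shControl (SD, n = 3 each). The log2 fold change was 0.01, with a 95% interval from -0.77 to 0.80 (limma adjusted p = 0.977), so the values leave room for a change of either sign. Its sign was negative with median scaling (-0.46, limma adjusted p = 0.353).

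Of polymerase delta, the accessory subunit POLD2 was higher, and the catalytic subunit POLD1 did not pass. POLD2 had 82.6, 93.6 and 102 FPKM in shTRMT6 libraries, against 56.6, 51.8 and 31.1 FPKM in shControl libraries. The groups did not overlap, and the means were 92.7 ± 9.70 FPKM in shTRMT6 and 46.5 ± 13.6 FPKM in shControl (SD, n = 3 each). Its log2 fold change was 1.02 (SE 0.27, 95% interval 0.41 to 1.63, limma adjusted p = 0.0175). POLD1 had 40.9, 23.4 and 23.6 FPKM in shTRMT6 libraries, against 16.3, 14.6 and 21.3 FPKM in shControl libraries, a log2 fold change of 0.69 (95% interval 0.00 to 1.38, limma adjusted p = 0.105). Its groups did not overlap either, with shTRMT6 replicate 1 well above the other libraries, and the gene overlaps a protein-coding gene without a standard symbol on the same strand. POLD2 lies on the minus strand of chromosome 7 from 44114681 to 44124358, with 1512 nt of coding sequence and 1 pseudogene named after it. The call for POLD2 ended without shTRMT6 replicate 2 (limma adjusted p = 0.0578), without shTRMT6 replicate 3 (limma adjusted p = 0.0702) and with median scaling (log2 fold change 0.53, limma adjusted p = 0.154).

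POLE, the catalytic subunit of polymerase epsilon on the leading strand, was higher. It had 31.2, 32.4 and 42.9 FPKM in shTRMT6 libraries, against 8.18, 25.3 and 17.5 FPKM in shControl libraries. The groups did not overlap, and shControl replicate 1 was the lowest library, as for RFC1. The means were 35.5 ± 6.42 FPKM in shTRMT6 and 17.0 ± 8.57 FPKM in shControl (SD, n = 3 each), and the log2 fold change was 1.13 (SE 0.38, 95% interval 0.28 to 1.99, limma adjusted p = 0.0435). This call lay close to the threshold: it ended in 5 of the 6 fits that left out a library, all but that without shControl replicate 2. Without shControl replicate 1 the log2 fold change was 0.71 (limma adjusted p = 0.121), and with median scaling it was 0.66 (limma adjusted p = 0.188). POLE lies on the minus strand of chromosome 12 from 132623753 to 132687365, with 49 coding exons and the longest coding sequence of the 10 genes, 6858 nt.

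The groups did not overlap for 4 of the 10 genes in the higher direction and 1 in the lower, against 37% and 14.3% of all tested genes. Within the shControl group, replicate 3 was the highest library for 6 of the 10 genes (PCNA, RFC3, RFC4, RFC5, POLA1 and POLD1), against 31.9% of all tested genes. Without that library the median log2 fold change of the 10 genes was 0.13.

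The order of levels differed between the groups. In shTRMT6 libraries PCNA came first and its values lay above those of every other member, followed by POLD2, RFC2, RFC4, RFC5, RFC1, POLE, POLD1, POLA1 and RFC3. From POLD2 downward each gene overlapped the next in that order. In shControl libraries PCNA was again first and apart from the rest, followed by RFC4, RFC5 and RFC2, which overlapped one another. POLD2, RFC3, POLA1, POLD1, POLE and RFC1 came below RFC2 without overlapping it, each overlapping the next. RFC1 was thus number 6 of the 10 in shTRMT6 and the lowest in shControl.

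Ratios between genes within 1 library do not depend on how libraries are scaled, and 6 of them were compared. The level of the small RFC subunits (geometric mean of RFC2, RFC3, RFC4 and RFC5) relative to RFC1 was 1.04, 0.988 and 1.37 in shTRMT6 libraries, against 11.1, 3.05 and 5.77 in shControl libraries. This geometric mean thus lay nearer to the RFC1 level in each shTRMT6 library than in any shControl library, while in each shTRMT6 library RFC3 lay below RFC1, and RFC2 and RFC4 lay above it. The log2 difference of this ratio was -2.37, and it was -1.66 with the trends with level and coding length removed. PCNA relative to POLD1 was 7.92, 12.7 and 11.7 in shTRMT6 libraries, against 47.0, 45.4 and 58.6 in shControl libraries. The groups were far apart, with a log2 difference of -2.24, which was -1.06 with those trends removed. PCNA relative to the small RFC subunits was 7.19, 7.17 and 4.33 in shTRMT6 libraries, against 12.4, 11.1 and 13.7 in shControl libraries. Its log2 difference was -1.03, and -0.49 with those trends removed. POLA1 relative to POLD1 was 0.583, 0.839 and 0.749 in shTRMT6 libraries, against 0.901, 1.08 and 1.61 in shControl libraries, a log2 difference of -0.70. For these 4 ratios the groups did not overlap, and the two-sided exact permutation p was 0.1, the smallest that 3 against 3 libraries allow, or 0.15 adjusted over the 6 ratios. POLD2 relative to POLD1 (log2 difference 0.32, exact permutation p = 0.5) and POLE relative to POLD1 (0.47, exact permutation p = 0.6) had overlapping groups.

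**Figure D2:**
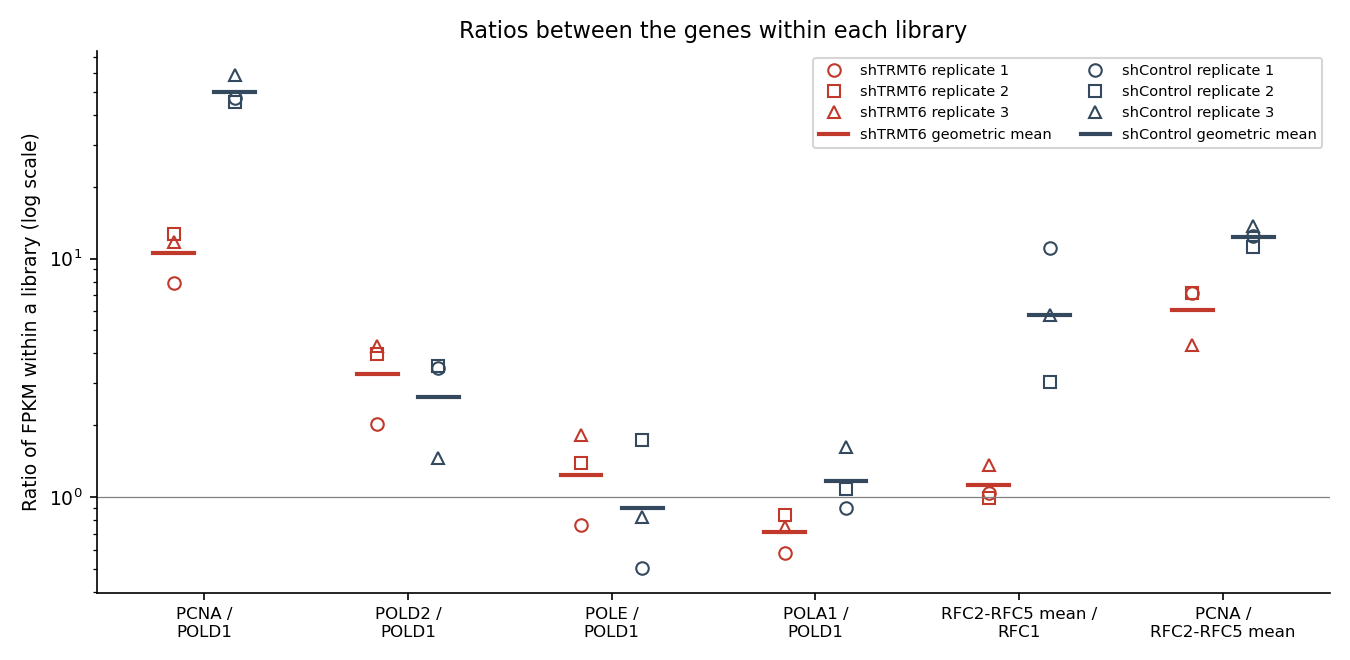
Ratios of FPKM between genes within each library on a log scale, with shTRMT6 in red and shControl in dark blue, and bars at the geometric mean of 3 libraries. The mean of RFC2 to RFC5 over RFC1 lies between 0.988 and 1.37 in shTRMT6 libraries and between 3.05 and 11.1 in shControl libraries.

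Among the 10 genes the change went with coding length and, inversely, with mean level, with the same signs as among all genes. Since r over 10 genes is imprecise, its size was not compared with that over all genes. Across the 10 genes Pearson's r between log2 fold change and log2 coding length was 0.75, and across all 11501 tested genes with a coding length it was 0.32, a description over genes that share libraries. With log2 mean level r was -0.64 and -0.30. Length and level were not separated among the 10 genes. PCNA and the small RFC genes, at 783 to 1089 nt, lie in a bin of 745 to 1167 nt, 1 of 5 equal bins of tested genes by coding length, whose median log2 fold change was 0.11. All 5 had log2 fold changes below that median. POLD2 lies in the next bin, with a median of 0.40. RFC1, POLD1, POLA1 and POLE, at 3399 to 6858 nt, lie in the bin of longest genes, with a median of 0.83. RFC1 at 1.78 lay above that median and POLE at 1.13 closer to it, while POLD1 at 0.69 and POLA1 at 0.01 lay below. Of 5 equal bins by mean level PCNA lies in the highest, with a median of -0.21. With the trends with level and coding length removed from each library, PCNA stayed lower (log2 fold change -1.13, limma adjusted p = 0.013), and RFC1 (1.01, limma adjusted p = 0.0544), POLD2 (0.64, limma adjusted p = 0.11) and POLE (0.21, limma adjusted p = 0.647) did not pass. In that fit PCNA alone of the 10 was called, with backgrounds of 13.5% higher and 13.6% lower. The share of G or C at the last position of codons ran from 32.8% in RFC4 to 84.7% in POLD1, with 38.7% in RFC1, 50.6% in PCNA, 73.4% in POLE and 73.6% in POLD2, and its r with the log2 fold change was 0.33 across the 10 genes.

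**Figure D3:**
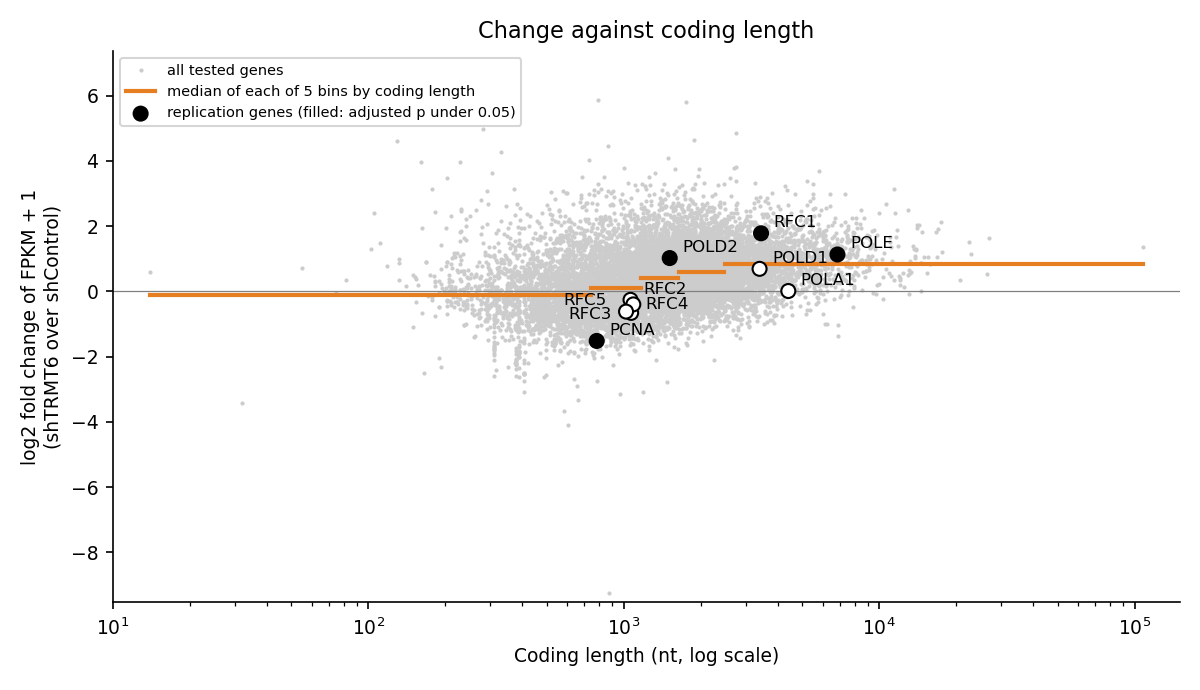
Log2 fold change of FPKM + 1 (shTRMT6 over shControl) against coding length in nt on a log scale for all tested genes (grey) and the 10 replication genes (circles, filled where the adjusted p was under 0.05). Orange lines are medians of 5 equal bins by coding length, from -0.11 in the shortest to 0.83 in the longest; PCNA lies below the median of its bin and RFC1 above its own.

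**Figure D4:**
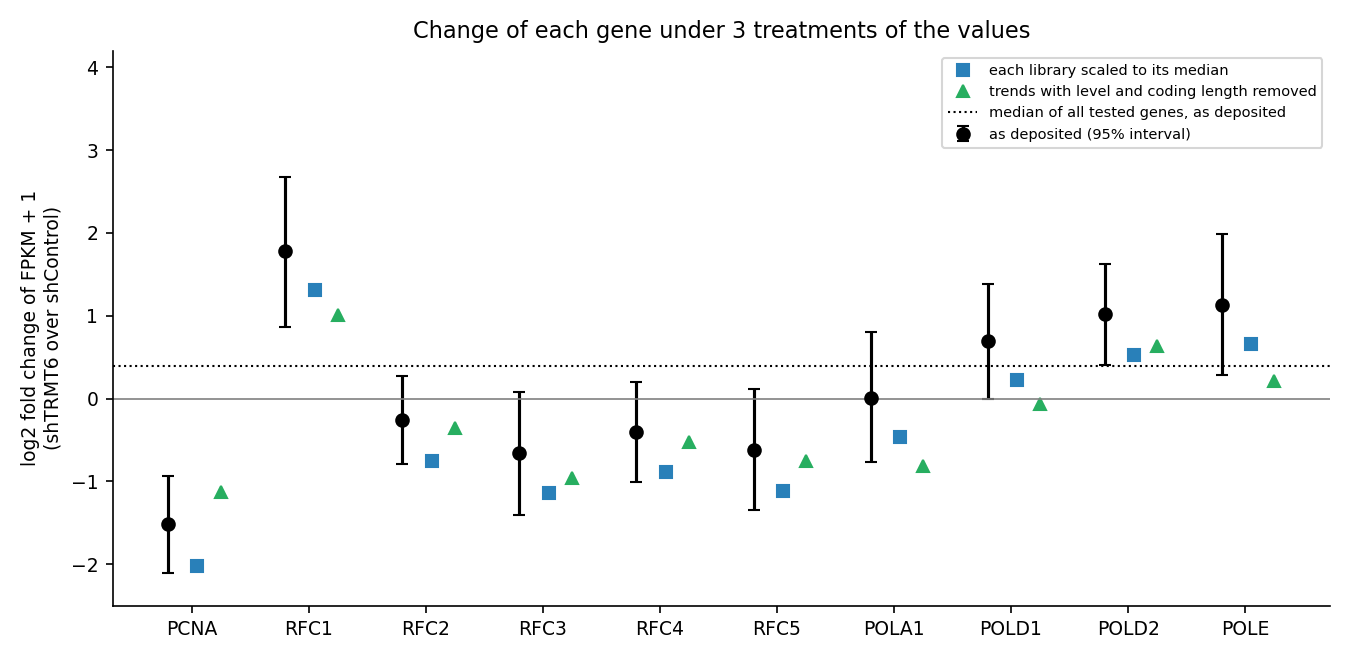
Log2 fold change of FPKM + 1 (shTRMT6 over shControl) of the 10 genes with values as deposited (black, 95% intervals), with each library scaled to its median (blue) and with trends with level and coding length removed (green). PCNA lies between -2.02 and -1.13 and RFC1 between 1.01 and 1.78 under all 3; the dotted line is the median of all tested genes, 0.39.

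The partners of these genes at the fork were read from a list of 36 genes, all of which passed the filter on low values. Of these, 3 were higher, 8 lower and 25 did not pass, against 26.5% and 9.04% of all tested genes higher and lower. Their median log2 fold change was 0.04. After median scaling the counts were 0 higher and 9 lower, with backgrounds of 13.1% and 19.7%, and without shControl replicate 3 they were 7 and 9, with backgrounds of 28.3% and 12.3%. The 8 lower genes were PRIM1, DSCC1, FEN1, RNASEH2A, RPA2, RPA3, PCLAF and TIPIN, and the 3 higher genes were ATAD5, RAD9A and DNMT1. Coding sequences ran from 345 to 1260 nt in the 8 lower genes and from 1173 to 5532 nt in the 3 higher. With the trends with level and coding length removed, the counts were 2 higher and 9 lower, with backgrounds of 13.5% and 13.6%. All 8 were among the 9. The 2 higher genes in that fit were RAD9A and POLE4, while ATAD5 and DNMT1 did not pass.

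Of the 8 remaining subunits of the polymerases, 1 was lower and 0 higher, against 9.04% and 26.5% of all tested genes. The lower gene was PRIM1, the catalytic subunit of primase, and the other 7 did not pass. PRIM1 had 16.6, 12.5 and 14.4 FPKM in shTRMT6 libraries, against 30.6, 21.7 and 32.2 FPKM in shControl libraries (log2 fold change -0.90, limma adjusted p = 0.0298). Its call ended in 5 of 15 alternatives: library sum scaling (limma adjusted p = 0.0501) and the fits without shTRMT6 replicate 1, 2 or 3 or shControl replicate 1 (limma adjusted p = 0.064, 0.101, 0.085 and 0.0864). The annotated gene overlaps NACA on the same strand, so reads may be shared. The other subunits of the alpha complex, PRIM2 and POLA2, had log2 fold changes of -0.22 and -0.65, the second imprecise at 0.73 to 5.29 FPKM in shTRMT6 libraries and 0 to 22.3 FPKM in shControl libraries. The delta subunits POLD3 and POLD4 had log2 fold changes of 0.06 and -0.55. The epsilon subunits POLE2, POLE3 and POLE4 had log2 fold changes of -0.22, -0.27 and 0.62. Of these, POLE4 was called higher with quantile normalization and with trends removed, and POLE3 lower without shControl replicate 3. POLE3 and POLE4, small histone-fold proteins, averaged 523 ± 72.4 and 453 ± 76.4 FPKM in shTRMT6, and 653 ± 207 and 309 ± 114 FPKM in shControl (SD, n = 3 each), far above POLE itself.

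The single-strand binding complex RPA, which coats unwound DNA, had 2 of 3 genes lower, against 9.04% of all tested genes. RPA3 had 52.0, 55.8 and 50.6 FPKM in shTRMT6 libraries, against 178, 159 and 92.7 FPKM in shControl libraries (log2 fold change -1.37, limma adjusted p = 0.00564), and RPA2 had a log2 fold change of -1.03. The large subunit RPA1 had 0.55 and did not pass (limma adjusted p = 0.292). In Okazaki fragment maturation, 2 of 6 genes were lower, against the same 9.04%. They were the flap nuclease FEN1 (-1.16), which PCNA tethers, and RNASEH2A (-0.95), the catalytic subunit of ribonuclease H2. The ligase LIG1 had 1.08 and did not pass (limma adjusted p = 0.0698). FEN1 overlaps FADS2 and RNASEH2A overlaps THSD8 on the same strand, and RPA3 overlaps UMAD1 on the opposite strand, so reads may be shared.

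Among 7 genes of clamp partners, 1 was lower and 1 higher, against 9.04% and 26.5% of all tested genes. PCLAF, a small protein that binds PCNA, had 115, 120 and 110 FPKM in shTRMT6 libraries, against 333, 272 and 196 FPKM in shControl libraries (log2 fold change -1.17, limma adjusted p = 0.00602). DNMT1, the maintenance DNA methyltransferase that is brought to forks by PCNA and UHRF1, had 111, 102 and 118 FPKM in shTRMT6 libraries, against 46.8, 72.1 and 62.2 FPKM in shControl libraries (0.88, limma adjusted p = 0.0179). For both genes the groups did not overlap. PCLAF overlaps a protein-coding gene without a standard symbol and DNMT1 overlaps S1PR2, both on the same strand, so reads may be shared. The PCLAF call held in all 15 alternatives. The DNMT1 call ended with median scaling (0.39, limma adjusted p = 0.213), with the trends with level and coding length removed (0.22, limma adjusted p = 0.398), and without shTRMT6 replicate 1 or 3 or shControl replicate 1 (limma adjusted p = 0.0682, 0.0721 and 0.066).

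Among 5 genes of other clamp loaders, 1 was lower and 1 higher, against 9.04% and 26.5% of all tested genes. CHTF18, CHTF8 and RAD17 had log2 fold changes of 0.15, -0.79 and 0.41 and did not pass. DSCC1, a subunit of the loader with CHTF18 that acts in sister chromatid cohesion, had 31.7, 28.5 and 35.3 FPKM in shTRMT6 libraries, against 61.2, 65.3 and 63.5 FPKM in shControl libraries (-0.98, limma adjusted p = 0.00944). ATAD5, the large subunit of the complex that takes PCNA off DNA, had 5.96, 4.25 and 6.91 FPKM in shTRMT6 libraries, against 1.13, 1.70 and 2.00 FPKM in shControl libraries (1.36, limma adjusted p = 0.0153). ATAD5, like RFC1, assembles with RFC2 to RFC5, and its groups did not overlap. The ATAD5 call ended with median scaling (limma adjusted p = 0.0532), with quantile normalization (0.58, limma adjusted p = 0.231), with the trends with level and coding length removed (0.25, limma adjusted p = 0.598), and without shTRMT6 replicate 1 or 3 or shControl replicate 1 (limma adjusted p = 0.0556, 0.0649 and 0.0514). Of 3 genes of the checkpoint clamp, 1 was higher, against 26.5% of all tested genes. This gene, RAD9A, had 40.7, 90.8 and 27.3 FPKM in shTRMT6 libraries, against 22.4, 10.8 and 8.13 FPKM in shControl libraries (1.81, limma adjusted p = 0.0165). Its partners RAD1 and HUS1 had 0.01 and 0.26 and did not pass. The RAD9A call ended without shTRMT6 replicate 2, its highest library (1.34, limma adjusted p = 0.063), with median scaling (1.34, limma adjusted p = 0.059) and with quantile normalization (1.30, limma adjusted p = 0.0727). RAD9A overlaps other genes on the opposite strand, among them PPP1CA. Of 4 genes that couple the fork, 1 was lower, against 9.04% of all tested genes, and 3 did not pass. The lower gene, TIPIN, had 26.6, 24.98 and 30.0 FPKM in shTRMT6 libraries, against 51.4, 52.6 and 68.9 FPKM in shControl libraries (-1.05, limma adjusted p = 0.00955). Its partner TIMELESS had 0.35 and did not pass (limma adjusted p = 0.306).

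**Figure D5:**
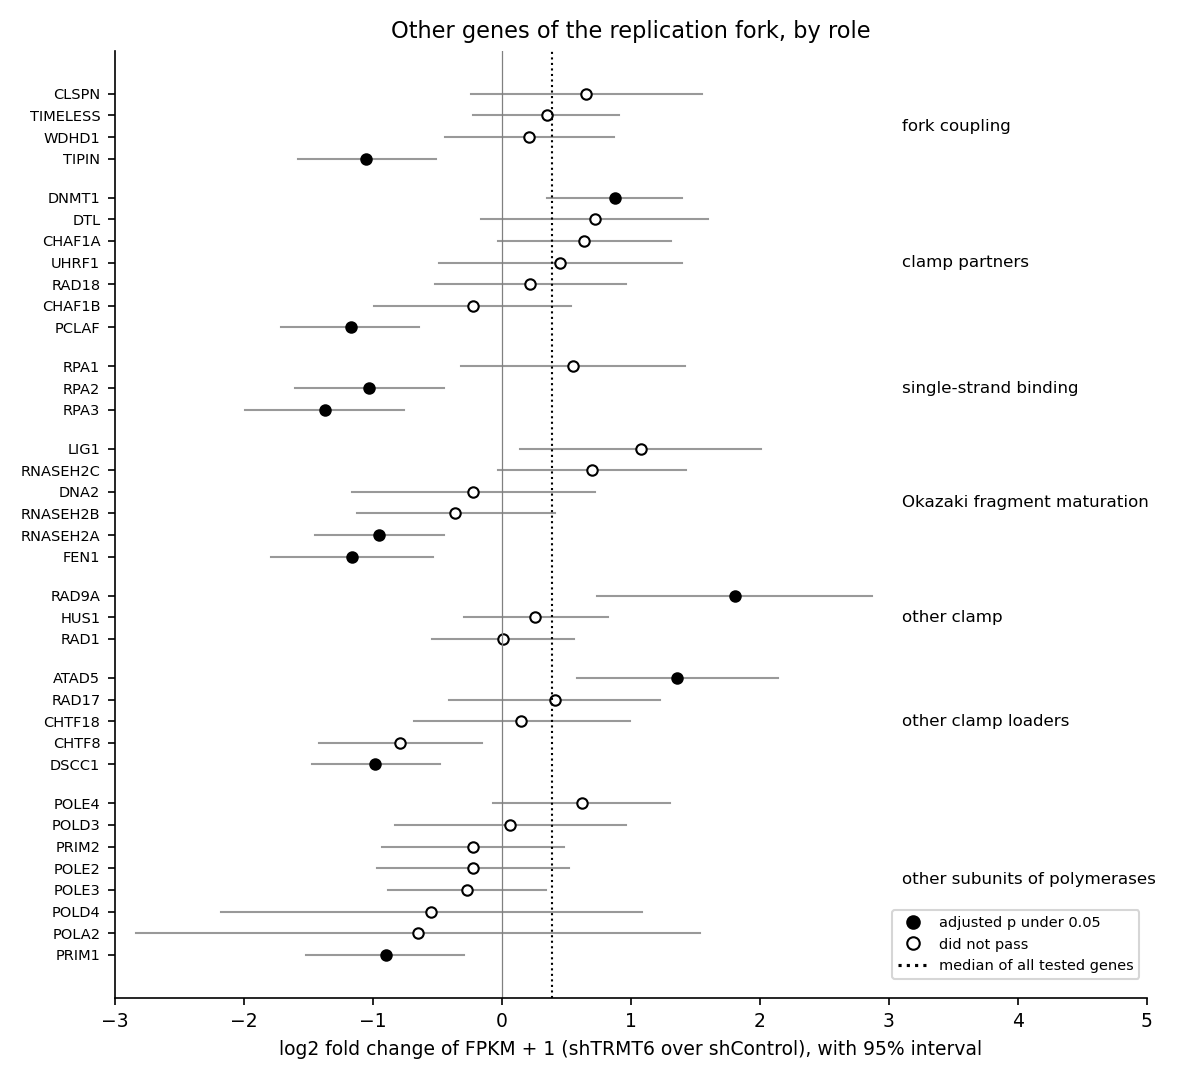
Log2 fold change of FPKM + 1 (shTRMT6 over shControl) with 95% intervals for 36 other genes of the replication fork, grouped by role, filled where the adjusted p was under 0.05. The values run from -1.37 for RPA3 to 1.81 for RAD9A, and the dotted line is the median of all tested genes, 0.39.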

How the data were processed

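Ribosome footprint libraries were made from RKO cells with an shTRMT6 or shControl hairpin, after RNase I digestion and purification on size exclusion columns, per the labels' protocols. The authors deposited FPKM per gene, named so per the file headers, with 2 decimals. Per the submitters' processing notes the tools included fastp, STAR and RSEM, with no versions. The genome build, the annotation, strand use and the handling of rRNA reads remain not given in the sources used here. Columns named SH and NC were read as shTRMT6 and shControl, which no label spells out. Since FPKM is relative to the library, a large rise of some genes lowers the rest, and with no matched RNA-seq used here, mRNA amount and ribosomes per mRNA cannot be told apart.

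Symbols came from a gene name table, and coding lengths (longest coding sequence of a gene) and positions from GENCODE 29, which may differ from the authors' annotation. Low FPKM values times coding length tended to fall on steps, with 58.4% to 68.0% of values within 0.1 of a whole number of reads. The step size of each library was chosen on these same values, so this share describes the fit and does not test it. The steps gave an estimated 2587000 to 4082000 reads per library. Reads per gene are estimates and no count model was fitted.

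The 11566 genes that reached 1 FPKM in 3 or more libraries entered the test. The model was fitted to log2(FPKM + 1) by limma 3.58.1 (R 4.3.3), had a term for the group alone and used an intensity trend. P-values were adjusted by Benjamini-Hochberg over all of them, at a threshold of 0.05. Fold changes on this scale understate low genes. Ratios were tested by two-sided exact permutation with scipy 1.17.1. On simulated data the fit recovered 18% of 100 genes changed 2-fold and 85% of 100 changed 4-fold, so a gene that did not pass may still have changed. That simulation gave 107 calls, against 4115 in the data, so its recovery need not carry over.

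The 10 genes, the list of 36 and the ratios were chosen with earlier results of these data known. Text names all 10, TRMT6, every called gene of the list, with values in each library for up to 4 of the smallest p in each direction, and all other polymerase subunits. EIF4A2, WSB2, NACA, PPP1CA, FADS2, THSD8, UMAD1 and S1PR2 are named as overlapping genes. The remaining names were picked with values in view. Alternatives were other scalings, removal of each library's trends against level and coding length by splines of 5 degrees of freedom, another pseudocount and filter, the replicate number as a block, no intensity trend, and each library left out.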

Additional observations from a re-analysis of the deposited data

How the results depend on the processing

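PCNA kept its direction and its call under all 15 alternatives, and RFC1 under all but the removal of trends with level and coding length. The number of the 10 genes called higher was 1 with median scaling, 1 with quantile normalization and 0 with trends removed, against 3, and 1 to 3 with a library left out. The number called lower was 5 with median scaling and 2 with quantile normalization, against 1, and 1 in each fit with a library left out. Of all tested genes 19.7% were called lower with median scaling and 14.7% with quantile normalization, against 9.04%. POLD2 lost its call in 5 alternatives and POLE in 10. The median log2 fold change of the 10 genes was -0.60 with median scaling, -0.52 with quantile normalization and -0.44 with trends removed, against -0.12, and -0.26 to 0.13 with a library left out. Of the 36 other fork genes, 0 were called higher with median scaling, against 3, and 1 to 7 with a library left out, while 6 to 9 were then called lower, against 8. Over all tested genes the shares called higher were 13.1% with median scaling and 15.8% to 28.3% with a library left out, and 5.08% to 12.3% were then called lower. RNASEH2A lost its call without shTRMT6 replicate 3 (limma adjusted p = 0.0522) and RPA2 without shTRMT6 replicate 1 (limma adjusted p = 0.066). POLA1, which did not pass, changed sign with median scaling (-0.46), quantile normalization (-0.54), trends removed (-0.81), and without shTRMT6 replicate 1 (-0.10), shControl replicate 1 (-0.20) or shControl replicate 2 (-0.15), with a range of -0.20 to 0.39 over the 6 fits with a library left out; POLD1, which did not pass, was -0.07 with trends removed. The log2 difference of POLD2 relative to POLD1 ran from -0.11 to 0.66 with a library left out, negative without shControl replicate 3. The cause was not tested. Libraries with the same replicate number share only that number in the labels, with correlations of the deviations from the group means of 0.012, 0.0134 and 0.102, and 1 of the 3 shTRMT6 libraries correlated best with its own number. With the replicate number as a block, 4211 of all tested genes were called, against 4115, with 27.2% higher and 9.21% lower. In that fit 5 and 9 of the 36 genes, and 3 and 1 of the 10 genes, were called higher and lower. Depth limits the genes of fewest reads, such as RFC3 with an estimated 55 to 78 reads per shTRMT6 library and 74 to 183 per shControl library.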
